A study of Mus musculus with 13 samples.

Results

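The response of the wild-type mouse retina to bright light was read from 6 of the 13 arrays of the series. The 3 WT light arrays came from C57BL/6 mice exposed to 15000 lux for 2 h, and the 3 WT dark arrays from C57BL/6 mice that stayed in the dark. RNA from both retinae of a mouse was pooled and read on its own array (Affymetrix Mouse Gene 1.0 ST), so the 3 arrays of a group are 3 animals. The 3 KO dark arrays, from mice kept in the dark that lack the coactivator PGC-1α in all tissues, were left out of the comparison of light with dark and served to mark genes at which WT dark stood apart from KO dark as well as from WT light, and their values are given beside some results. According to the methods all mice were dark adapted before the experiment, the pupils of exposed mice were dilated with eye drops, and exposed mice recovered overnight in darkness. The methods give the age as a range of weeks only, do not say whether the mice left in the dark received the drops, and do not give the time from light to collection for the arrayed retinae.

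By the labels the WT dark and KO dark mice were female and the WT light mice male, while the methods name male mice. The arrays followed the labels: Xist, the RNA that silences an X chromosome in female cells, lay between 11.86 and 11.93 on the log2 intensity scale in WT dark and between 4.67 and 5.12 in WT light, and the Y-linked Uty lay between 4.22 and 4.42 in WT dark and between 9.35 and 9.53 in WT light. In KO dark Xist lay between 11.95 and 12.02 and Uty between 4.14 and 4.29, so KO dark shared its sex with WT dark. Sex and light therefore cannot be told apart in any result given here. Genes on X and Y were left out, and so were genes with no chromosome in the reference table, which left 19104 genes. A further array labelled WT dark replicate 4, from a male mouse, was left out because it stood apart from the other WT dark arrays. Over the 19104 genes its log2 intensities correlated at 0.998 and 0.9969 with the arrays labelled KO light replicates 1 and 2 (PGC-1α knockout males exposed to light) and at 0.9898 to 0.9899 with WT dark. The array labelled KO light replicate 3 went the other way, at 0.9974 to 0.9977 with WT dark against 0.9908 and 0.9932 with KO light replicates 1 and 2. Gfap, a gene of reactive glia described below, lay at 9.71 in WT dark replicate 4 and at 9.75, 9.88 and 7.37 in KO light replicates 1, 2 and 3. Both arrays thus went against their labels. The sex genes do not tell them apart, since both were male, and whether their labels were exchanged was not tested. Neither was among the 6 arrays compared, but KO light replicate 3 was among the 12 arrays of an alternative fit, which was therefore also made without it (11 arrays, chosen after seeing the data). The arrays do not show the loss of PGC-1α, with its gene Ppargc1a at 10.19 to 10.40 in KO dark and 10.01 to 10.03 in WT dark, and which part of the gene the probe sets read was not tested.

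Bright light drives the rods, which fill most of the mouse retina, and a long exposure injures them. Müller glia, which span the whole retina, answer injury with intermediate filament proteins and with signaling by cytokines of the interleukin-6 family through the receptor subunit gp130 and the transcription factor STAT3. Injured tissue may also switch on interferon-stimulated genes and chemokines, which call immune cells. The RNA measured was that of a retina: the rod transducin gene Gnat1 lay between 13.70 and 13.80 in the 6 arrays, the cone opsin gene Opn1sw between 12.11 and 12.37 and the Müller glia enzyme gene Glul between 12.07 and 12.38. Levels of marker genes of neighbouring tissue varied between animals. Cryaa, a lens crystallin, ranged from 7.49 to 11.03 within WT light, and Rpe65, which marks the retinal pigment epithelium (RPE), from 5.53 to 7.75 within WT light. Limma called none of 18 lens, 5 blood and 11 muscle and lid markers, with 0, 0 and 2 at an unadjusted p under 0.05 (22.9% of all genes). The summed intensity of the lens markers was 2154 to 3540 in WT dark and 2121 to 10528 in WT light. In whole-tissue RNA, fewer cells of a type and less RNA per cell cannot be told apart.

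A gene was called when its Benjamini-Hochberg adjusted p in limma was under 0.05 and its ratio of WT light to WT dark was at least 1.2 or at most 0.87, the ratios that the methods name. Light and dark retinae differed at 659 of 19104 genes (3.45%), of which 341 were higher (1.78%) and 318 lower (1.66%) in WT light. The changes were small. The median size was 0.34 on the log2 scale among higher genes and 0.31 among lower genes, and 7 higher and 5 lower genes changed by a ratio of 2 or more. An unadjusted p under 0.05 was found at 4374 genes (22.9%), and the 3 WT light and 3 WT dark values did not overlap at 5429 genes (28.4%). The median log2 difference over all genes was 0.02. When arrays were rescaled, the split of the calls moved from 51.7% higher to 34.3% with quantile normalization and to 39.9% with arrays centred on their medians. The first principal component of the 6 arrays held 46.5% of the variance and separated WT light from WT dark, and the second, with 16.8%, ran within both groups.

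**Figure D1:**
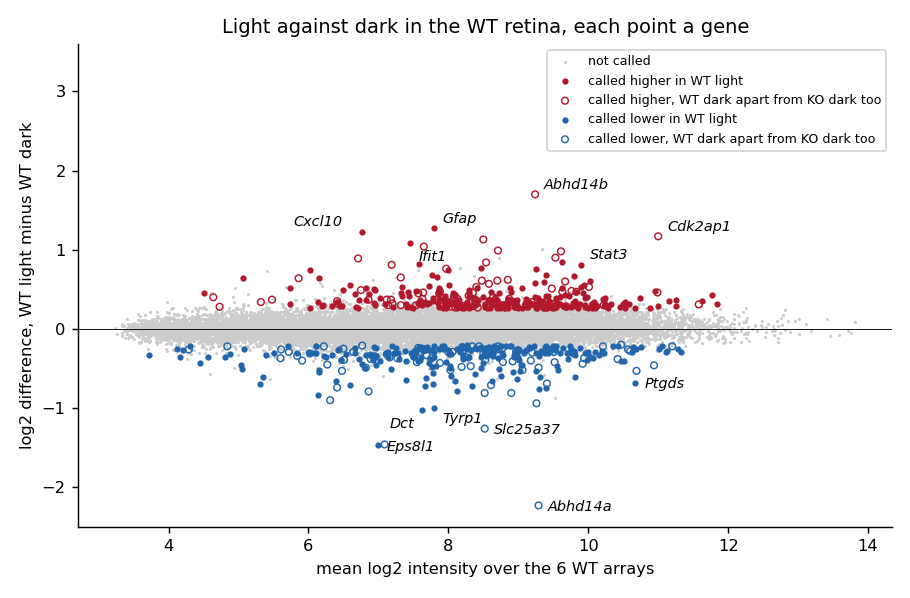
Each point is 1 of 19104 genes, with the mean log2 intensity of the 6 WT arrays on the x axis and the log2 difference of WT light minus WT dark on the y axis. Red and blue mark the 341 higher and 318 lower genes, and open circles those at which WT dark also stood apart from KO dark, among them the farthest points Abhd14a (-2.23) and Abhd14b (1.70).

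With 3 animals a group, fewer genes were called whenever 1 array was left out. Each such fit also had fewer animals and fewer residual degrees of freedom, and how much of the loss came from that was not tested. Without WT dark replicate 1, 2 or 3 the number of called genes was 128, 90 or 166, and without WT light replicate 1, 2 or 3 it was 237, 171 or 156. There were 72 genes called with all 6 arrays and also without each array in turn, 38 of them higher and 34 lower. In a separate count, the 12 arrays of 4 groups called 72 genes, all among the 659, and without KO light replicate 3 the remaining 11 arrays called 826 genes, of which 602 were among the 659. Among the genes described below, Cxcl10, Cox6a1, Ndufb6, Snrpe, Rrs1, Ctsl, Eps8l1, Gstm6, Ptgds, Cdkal1, Lrp2, Zfp458, Zfp738, Zfp874b, Mir380, Mir153, Krt18, Abhd14a, Abhd14b, Cdk2ap1, Slc25a37, Cmtm5, Mns1, Uggt2 and Cdcp3 kept the call whichever of the 6 arrays was left out.

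Several genes of reactive glia rose in WT light. Of 26 measured genes of reactive glia and the acute phase 8 were called higher and none lower (1.78% and 1.66% of all genes), 25 had a higher mean in WT light (56.2% of all genes), and the median log2 difference was 0.33, against 0.02 over all genes. The list holds 16 genes with an unadjusted p under 0.05, all higher in WT light (14.3% of all genes). In a fit without moderated variances no member of this or any other gene list was called. The highest was Gfap, the intermediate filament protein by which reactive Müller glia are recognised. Its log2 intensity was 7.09, 7.31 and 7.07 in WT dark and 7.91, 8.39 and 8.98 in WT light. The groups did not overlap, and the WT light animals were spread widely, with replicate 3 highest. The log2 difference was 1.27 ± 0.22 (SE), a ratio of 2.41, with an adjusted p of 0.0266. The call was lost without WT dark replicate 1, 2 or 3 or WT light replicate 2, with an adjusted p of up to 0.087. Vim and Nes, also intermediate filament genes of activated Müller glia, rose as well. Of 16 measured intermediate filament genes 4 were called higher (Gfap, Vim, Nes and Krt18) and none lower. In that list 7 had a higher and 9 a lower mean, with a median of -0.03, and Synm was not called (-0.207). Vim measured 11.58, 11.53 and 11.55 in WT dark and 11.88 to 12.07 in WT light, with a difference of 0.43 ± 0.06 (adjusted p = 0.0101). Nes measured 5.77, 5.75 and 5.98 in WT dark and 6.39, 6.37 and 6.64 in WT light, with a difference of 0.64 ± 0.09 (adjusted p = 0.0128). Both genes separated the groups with a narrower spread than Gfap. The call of Vim was lost without WT dark replicate 2 (adjusted p = 0.0604), and that of Nes without WT dark replicate 1 or 2 (up to 0.0721).

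The receptor genes Osmr and Il6st and the transcription factor gene Stat3 rose as well. Stat3, which carries the signal of gp130 to the nucleus, measured 9.47, 9.50 and 9.53 in WT dark and 9.93, 10.33 and 10.67 in WT light. The dark animals lay close together while replicate 3 of WT light was again highest and replicate 1 lowest. The difference was 0.81 ± 0.15 (adjusted p = 0.0306). Osmr, the receptor subunit for oncostatin M, measured 7.34, 7.65 and 7.30 in WT dark and 7.83, 8.08 and 8.43 in WT light, with a difference of 0.68 ± 0.15 (adjusted p = 0.0423). Il6st, which encodes gp130 itself, measured 10.02 ± 0.03 (SD) in WT dark and 10.27, 10.38 and 10.56 in WT light, with a difference of 0.38 ± 0.07 (adjusted p = 0.0297). In each of the 3 genes the groups were apart and the order of the light animals was that of Gfap. Gadd45b, a stress-induced gene, measured 6.94, 7.34 and 7.22 in WT dark and 7.71, 7.90 and 8.35 in WT light, with a difference of 0.82 ± 0.16 (adjusted p = 0.0325). Stat3, Osmr, Il6st and Gadd45b each kept the call only when WT light replicate 1 was left out, and their adjusted p rose to as much as 0.11, 0.125, 0.101 and 0.0926. Steap4, a metalloreductase, rose by 0.49 ± 0.11 (adjusted p = 0.0478) and lost the call whichever of the 6 arrays was left out, with an adjusted p of up to 0.141. Pim1, a kinase gene that STAT proteins induce, rose by 0.48 ± 0.07 (adjusted p = 0.0127, at most 0.0718 without WT dark replicate 2 or 3). Of 24 members of JAK-STAT and cytokine receptor signaling 4 were thus called higher and none lower (1.78% and 1.66% of all genes), with a median of 0.07. Socs3, the feedback inhibitor of this pathway, was not called (0.17 ± 0.06, adjusted p = 0.134), and its 2 probe sets differed by -0.06 and 0.39. The kinase genes Jak1 (-0.08, adjusted p = 0.387) and Jak2 (0.14, adjusted p = 0.0944) were not called. Nor were the receptor genes Lifr (0.023), Il6ra (0.022) and Cntfr (-0.136).

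Several other acute-phase genes did not pass the test. Serpina3n, a secreted protease inhibitor, measured 8.23, 9.01 and 9.27 in WT dark and 9.02, 9.93 and 10.60 in WT light. The groups overlapped, and the difference of 1.01 ± 0.39 had an adjusted p of 0.167. A2m, the protease inhibitor alpha-2-macroglobulin, was apart between the groups, with 7.65, 8.19 and 8.27 in WT dark and 8.31, 8.75 and 9.06 in WT light, and was not called (0.67 ± 0.21, adjusted p = 0.104). Lcn2, an iron-scavenging lipocalin, differed by 0.07 ± 0.16 (adjusted p = 0.833). Genes for the daily work of Müller glia gave 1 called gene of 14, Dbi (0.32 ± 0.07, adjusted p = 0.0418, lost whichever array was left out, up to 0.125), and a median of 0.07. When the 12 arrays of all 4 groups were fitted together none of the 8 reactive glia genes was called, with an adjusted p between 0.178 (Steap4) and 0.421 (Il6st), while without KO light replicate 3 all 8 were called, with an adjusted p between 0.00405 (Gfap) and 0.0249 (Gadd45b). The median of the list was -0.06 once WT dark replicate 4 was counted among the WT dark animals.

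**Figure D2:**
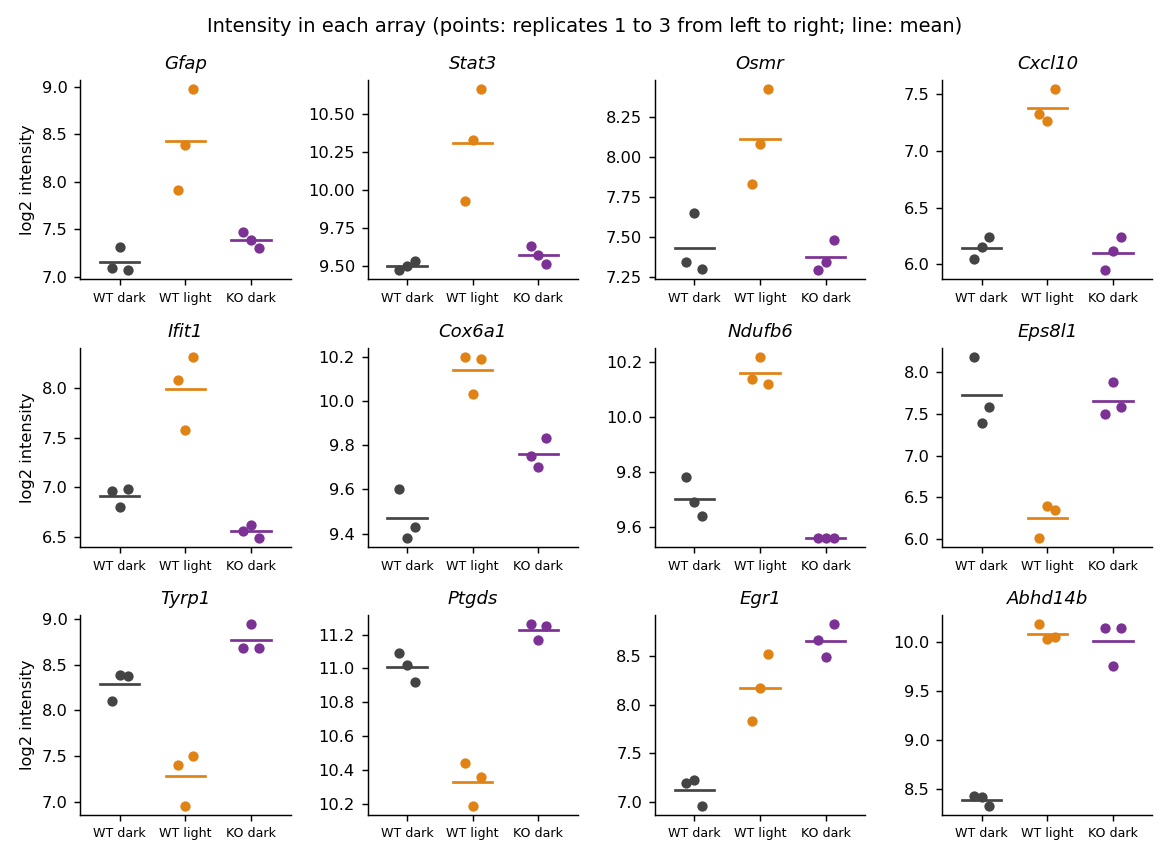
Log2 intensity of 12 genes in each WT dark, WT light and KO dark array, with 1 point per animal and the group mean as a line, each panel on its own axis. In Gfap, Stat3 and Osmr replicate 3 is the highest of WT light, while Cxcl10, Cox6a1 and Ndufb6 form tight groups, and for Egr1 and Abhd14b the KO dark points lie with or above those of WT light.

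The chemokine gene Cxcl10 and 5 genes induced by interferon rose in WT light. Cxcl10, a chemokine that draws T cells and is itself induced by interferon, measured 6.05, 6.15 and 6.24 in WT dark and 7.33, 7.27 and 7.55 in WT light. The groups lay more than 1 log2 unit apart with little spread within them. The difference was 1.23 ± 0.08, a ratio of 2.35, with an adjusted p of 0.000706 and at most 0.0108 whichever array was left out. Of 23 measured genes of the interferon response and antigen presentation 5 were called higher and none lower (1.78% and 1.66% of all genes). A higher mean in WT light was found at 21 (56.2% of all genes), 14 did not overlap and were higher (17.7% of all genes), and the median was 0.17. Ifit1, whose product binds foreign RNA caps, measured 6.96, 6.80 and 6.98 in WT dark and 8.08, 7.58 and 8.32 in WT light, with a difference of 1.08 ± 0.16 (adjusted p = 0.0163). Ifit3, its partner, measured 8.04, 7.93 and 8.23 in WT dark and 8.98, 8.44 and 9.11 in WT light, with a difference of 0.77 ± 0.16 (adjusted p = 0.0373). In both genes the groups were apart, and replicate 2 of WT light was lowest. The call of Ifit1 was lost without WT dark replicate 1, 2 or 3 or WT light replicate 1 (up to 0.0806), and Ifit3 kept it only without WT light replicate 2 (up to 0.136).

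Usp18, a brake on interferon receptor signaling, measured 7.19, 7.05 and 7.14 in WT dark and 7.54, 7.44 and 7.66 in WT light, with a difference of 0.42 ± 0.07 (adjusted p = 0.0195). It kept the call only without WT light replicate 2 (up to 0.0805). Irf7, a transcription factor that amplifies the response, rose by 0.42 ± 0.05 (adjusted p = 0.0092, lost without WT dark replicate 2 at 0.0531). Its KO dark values were 8.88, 8.76 and 8.12 against 8.08, 8.09 and 8.06 in WT dark and 8.45, 8.45 and 8.6 in WT light, so that 2 of the 3 KO animals kept in the dark exceeded every WT light animal. Rsad2, the antiviral enzyme viperin, rose by 0.32 ± 0.07 (adjusted p = 0.0414) and lost the call whichever array was left out (up to 0.136). Outside the list, Ube2l6 rose by 0.50 ± 0.09 (adjusted p = 0.0278, kept only without WT dark replicate 2, up to 0.0881) and Herc6 by 0.39 ± 0.08 (adjusted p = 0.0378, lost whichever array was left out, up to 0.13). Both act in the attachment of the ubiquitin-like protein ISG15 and were named after their values were seen. None of the 5 list members was called when the 12 arrays were fitted together, with an adjusted p between 0.18 (Ifit3) and 0.475 (Usp18), and Cxcl10 had 0.091 there. Without KO light replicate 3 Ifit1 (0.00198), Ifit3 (0.0131) and Cxcl10 (0.00179) were called, and Irf7 (0.104), Rsad2 (0.0623) and Usp18 (0.219) were not. Among 23 chemokines and cytokines Cxcl10 alone was called (3.45% of all genes). Ccl3, which attracts macrophages, was not called (0.54 ± 0.14, adjusted p = 0.0697), nor was Ccl2 (0.10 ± 0.06, adjusted p = 0.383).

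The promoters of many interferon-induced genes carry a short repeat, the interferon response element. In the RefSeq promoters of GRCm38.p6, each a short window around the start of a gene, the element, searched on both strands as GAAA repeated after any 2 bases, was held by 1131 of 32851 promoters (3.44%). It was held by 3 of the 4 called interferon list members with a promoter in the table, Ifit1, Ifit3 and Rsad2, and by Cxcl10. The promoter of Irf7 lacked it. The list was made of genes known to be induced by interferon, so this share says nothing about the comparison of light with dark. The promoters are printed 5′ to 3′ on the strand of the gene, with the matches in capitals. Ifit1 (chr19:34640639-34640938, plus strand) and Ifit3 (chr19:34583279-34583578, plus strand) hold 2 matches each, Cxcl10 (chr5:92348840-92349139, minus strand) and Rsad2 (chr12:26456403-26456702, minus strand) hold 1 each.
Ifit1: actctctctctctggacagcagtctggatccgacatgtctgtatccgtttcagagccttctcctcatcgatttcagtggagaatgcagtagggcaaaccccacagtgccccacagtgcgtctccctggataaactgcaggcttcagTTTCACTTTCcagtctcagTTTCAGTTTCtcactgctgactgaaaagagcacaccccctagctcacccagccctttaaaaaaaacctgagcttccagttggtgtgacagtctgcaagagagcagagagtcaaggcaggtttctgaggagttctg
Ifit3: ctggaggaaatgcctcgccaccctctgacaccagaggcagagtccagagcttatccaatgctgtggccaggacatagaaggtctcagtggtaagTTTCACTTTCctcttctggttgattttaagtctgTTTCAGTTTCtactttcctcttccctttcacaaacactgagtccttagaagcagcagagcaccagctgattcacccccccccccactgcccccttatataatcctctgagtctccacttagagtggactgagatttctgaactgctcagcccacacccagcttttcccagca
Cxcl10: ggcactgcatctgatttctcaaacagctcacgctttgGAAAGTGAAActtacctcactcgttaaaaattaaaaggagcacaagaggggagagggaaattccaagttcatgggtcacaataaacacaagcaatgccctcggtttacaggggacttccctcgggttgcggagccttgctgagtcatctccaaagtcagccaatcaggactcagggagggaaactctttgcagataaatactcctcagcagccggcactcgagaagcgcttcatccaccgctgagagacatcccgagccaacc
Rsad2: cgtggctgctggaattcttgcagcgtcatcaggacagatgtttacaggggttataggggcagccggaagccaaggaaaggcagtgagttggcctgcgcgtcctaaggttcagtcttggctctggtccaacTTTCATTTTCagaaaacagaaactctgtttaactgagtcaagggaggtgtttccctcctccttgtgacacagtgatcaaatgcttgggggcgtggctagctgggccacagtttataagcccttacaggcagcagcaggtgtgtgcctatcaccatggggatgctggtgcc
Relative to the start site the first match begins at -104 in Ifit1, -156 in Ifit3, -213 in Cxcl10 and -120 in Rsad2. A match describes the letters and shows no binding. The STAT motif TTCNNNGAA, which reads the same on both strands and is held by 8.3% of promoters, was in 2 of the 8 called reactive glia promoters, those of Gfap and Steap4. The AP-1 motif TGACTCA, searched on both strands and held by 5.2% of promoters, was in none of these 8 and in those of Rsad2 and Cxcl10, the clock E-box CACGTG (7.15%) was in that of Gadd45b, and the letters TATAAA, on either strand of 13.6% of promoters, were in those of Gadd45b, Steap4, Vim, Irf7 and Rsad2.

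Genes of the respiratory chain and of the citrate cycle had small positive differences. Of 70 measured genes of oxidative phosphorylation 9 were called higher and none lower (1.78% and 1.66% of all genes). A higher mean in WT light was found at 59 (56.2% of all genes), and 39 did not overlap and were higher (17.7% of all genes). The median was 0.09, and 33 of 70 had an unadjusted p under 0.05 in limma, all 33 higher (14.3% of all genes). The called genes came from complex I (Ndufb6, Ndufs3, Ndufa4 and Ndufa3, 4 of 33 measured), complex III (Uqcrb, 1 of 9), complex IV (Cox6a1 and Cox5a, 2 of 9) and the ATP synthase (Atp5g2 and Atp5c1, 2 of 14). None of 4 genes of complex II was called, and these had a median of 0.18. Cox6a1, a subunit of cytochrome c oxidase, measured 9.60, 9.38 and 9.43 in WT dark and 10.20, 10.03 and 10.19 in WT light, with a difference of 0.67 ± 0.07 (adjusted p = 0.00523). Ndufb6, a subunit of NADH dehydrogenase, measured 9.78, 9.69 and 9.64 in WT dark and 10.14, 10.22 and 10.12 in WT light, with a difference of 0.46 ± 0.05 (adjusted p = 0.0076). Both kept the call whichever array was left out, with an adjusted p of up to 0.0371 and 0.0486, and Cox6a1 stood well above the other called subunits, which rose by 0.26 (Ndufa3) to 0.32 (Atp5g2). Those 7 subunits lost the call whichever array was left out, with an adjusted p of up to 0.0751 (Cox5a) to 0.132 (Atp5g2). The 3 probe sets of Atp5g2 differed by 0.57, 0.26 and 0.12, and the 2 of Ndufs3 by 0.51 and 0.12.

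The mean level of both lists in KO dark lay on the other side of WT dark. The mean log2 level of the 70 genes was 9.61 ± 0.03 (SD) in WT dark, 9.73 ± 0.02 in WT light and 9.52 ± 0.01 in KO dark, and that of 19 citrate cycle genes was 9.61 ± 0.03, 9.75 ± 0.02 and 9.49 ± 0.01. Cox6a1 went the other way, with KO dark at 9.75, 9.70 and 9.83, between WT dark and WT light and overlapping neither, at 0.43 of the way to WT light. Of the 19 citrate cycle genes 18 had a higher mean in WT light (56.2% of all genes), 13 did not overlap and were higher (17.7% of all genes), and the median was 0.14. Dld, the lipoamide dehydrogenase subunit of the pyruvate and 2-oxoglutarate dehydrogenases, was the called one. It measured 9.03, 8.88 and 9.03 in WT dark and 9.31, 9.23 and 9.25 in WT light, with a difference of 0.28 ± 0.06 (adjusted p = 0.0352, lost whichever array was left out, up to 0.105). The medians of both lists were smaller after rescaling, with 0.06 for oxidative phosphorylation and 0.11 for the citrate cycle under quantile normalization. Cycs (0.06 ± 0.07, adjusted p = 0.642) and Cox5b (0.15 ± 0.04, adjusted p = 0.088) were not called. The coactivator genes Ppargc1a (-0.09 ± 0.05, adjusted p = 0.34) and Ppargc1b (-0.12 ± 0.05, adjusted p = 0.221) were not called either. None of 16 genes of the PGC-1 coactivators and their partners was called in limma. Of these 1 had an unadjusted p under 0.05 (22.9% of all genes), and the median was 0.02.

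**Figure D3:**
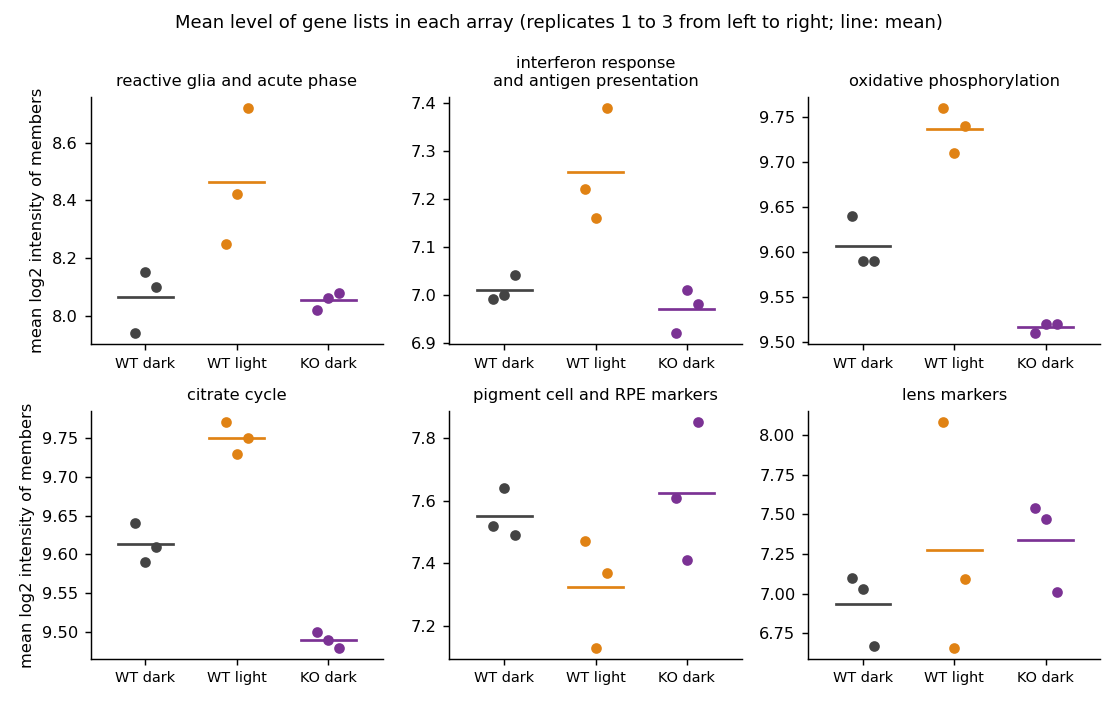
Mean log2 intensity over the members of 6 gene lists in each WT dark, WT light and KO dark array, with 1 point per animal and the group mean as a line, each panel on its own axis. Oxidative phosphorylation and the citrate cycle form 3 separate levels (9.52, 9.61 and 9.73 for KO dark, WT dark and WT light in the former), and lens markers spread more within WT light than between groups.

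Further called genes follow, most of them named after their values were seen. Slc2a3, a neuronal glucose transporter, measured 9.34, 9.33 and 9.41 in WT dark and 9.72, 9.72 and 9.70 in WT light, with a difference of 0.35 ± 0.04 (adjusted p = 0.0092, lost without WT dark replicate 2 at 0.0531). Hk2, the hexokinase of photoreceptors, rose by 0.31 ± 0.06 (adjusted p = 0.032, lost whichever array was left out, up to 0.0947), and Nampt, the rate-limiting enzyme of NAD recovery, by 0.32 ± 0.05 (adjusted p = 0.0225, kept only without WT light replicate 3, up to 0.0828). Snrpe, a core protein of spliceosomal particles, measured 8.93, 8.79 and 8.89 in WT dark and 9.68, 9.61 and 9.61 in WT light. Its groups were far apart against their spread, the difference was 0.76 ± 0.05, and the adjusted p of 0.000706 was at most 0.00874 whichever array was left out and 0.0291 with 12 arrays. Rrs1, needed for ribosome assembly, rose by 0.52 ± 0.05 (adjusted p = 0.00497). Nop10, a part of small nucleolar particles, rose by 0.38 ± 0.06 (adjusted p = 0.0141, kept only without WT dark replicate 1, up to 0.0578). Of 43 cytosolic ribosomal protein genes 3 were called higher and none lower (1.78% and 1.66% of all genes). These were Rps3 (0.33), Rps7 (0.33) and Rpl23 (0.30), and the median of the list was 0.09. Rps7 and Rpl23 lost the call whichever array was left out (up to 0.129 and 0.131), and Rps3 kept it only without WT light replicate 3 (up to 0.0769). Mtrr, which reactivates methionine synthase, measured 7.68, 7.57 and 7.60 in WT dark and 8.12, 8.53 and 8.46 in WT light, with a difference of 0.75 ± 0.10 (adjusted p = 0.0101, 0.0661 or less without WT dark replicate 2 or WT light replicate 3). Prdx3, the mitochondrial peroxiredoxin, rose by 0.36 ± 0.05 (adjusted p = 0.0128, lost without WT dark replicate 1, 2 or 3 or WT light replicate 3, up to 0.0541), and Asns, the asparagine synthetase, by 0.28 ± 0.05 (adjusted p = 0.0266, lost whichever array was left out, up to 0.0814).

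Other called genes with higher levels in WT light were Chil1, Cfi, Slc14a1, Ahr, Ctsl and Kdr. Chil1, a secreted chitinase-like protein of reactive astrocytes, measured 9.16, 9.23 and 9.20 in WT dark and 9.74, 9.93 and 10.45 in WT light, with a difference of 0.85 ± 0.15 (adjusted p = 0.0278). Cfi, the complement factor that cleaves C3b, measured 5.51, 5.71 and 5.71 in WT dark and 6.08, 6.37 and 6.71 in WT light, with a difference of 0.74 ± 0.14 (adjusted p = 0.0304), and was the called gene among 14 of complement. Slc14a1, a urea transporter, measured 9.03, 9.09 and 9.04 in WT dark and 9.44, 9.70 and 10.05 in WT light, with a difference of 0.68 ± 0.13 (adjusted p = 0.0312). The 3 genes shared the order of the light animals seen for Gfap, with replicate 1 lowest and replicate 3 highest. Chil1 and Slc14a1 lost the call without WT dark replicate 1, 2 or 3 or WT light replicate 2 (up to 0.0981 and 0.106), and Cfi kept it only without WT light replicate 1 (up to 0.0986). Ahr, the receptor of aryl hydrocarbons, rose by 0.60 ± 0.08 (adjusted p = 0.0113, at most 0.0642 without WT dark replicate 1 or 2 or WT light replicate 2). Ctsl, a lysosomal protease, rose by 0.42 ± 0.05 (adjusted p = 0.00635). Kdr, a receptor of vascular endothelial growth factor, rose by 0.47 ± 0.07 (adjusted p = 0.0165, at most 0.0782 without WT dark replicate 1, 2 or 3 or WT light replicate 2), and was the called gene among 15 of endothelium and pericytes, of which Pecam1 differed by -0.05 ± 0.06 (adjusted p = 0.629).

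The largest falls included Eps8l1 and the melanin synthesis genes Tyrp1 and Dct. Eps8l1, an actin-regulating gene, measured 8.19, 7.39 and 7.59 in WT dark and 6.01, 6.40 and 6.34 in WT light. The groups were far apart, and KO dark at 7.50, 7.89 and 7.59 lay with WT dark. The difference of -1.47 ± 0.19, a ratio of 0.36, had an adjusted p of 0.01. Tyrp1, an enzyme of melanin synthesis, measured 8.10, 8.39 and 8.38 in WT dark and 7.40, 6.96 and 7.50 in WT light, with a difference of -1.0 ± 0.14 (adjusted p = 0.0127, lost without WT dark replicate 2 or 3, up to 0.0721). Dct, another enzyme of melanin synthesis, measured 7.76, 8.10 and 8.55 in WT dark and 7.23, 6.63 and 7.46 in WT light, with a difference of -1.03 ± 0.24 (adjusted p = 0.0498, lost whichever array was left out, up to 0.146). Best1, a chloride channel of the RPE, fell by 0.30 (adjusted p = 0.0368, lost whichever array was left out, up to 0.116). Of 23 measured markers of pigment cells and the RPE 3 were called lower and 1 higher (1.66% and 1.78% of all genes). A lower mean was found at 19 of them, against 8363 of all 19104 genes, and the median was -0.18 (-0.20 with centred arrays). Other pigment genes of the list were not called, namely Tyr (-0.14), Pmel (-0.416), Mlana (-0.18), Oca2 (-0.035), Slc24a5 (-0.073) and Slc45a2 (0.056). The called higher one was Krt18, a keratin, at 0.90 ± 0.08 (adjusted p = 0.00311), with KO dark (9.87 to 9.95) level with WT light (9.91 to 10.11) and WT dark at 8.96 to 9.23. The summed intensity of the 23 markers was 6694 to 7849 in WT dark, 5580 to 7209 in WT light and 6648 to 9334 in KO dark. Rpe65 was not called (-0.30 ± 0.47, adjusted p = 0.741), nor was Lrat (-0.30 ± 0.11, adjusted p = 0.156). The amount of attached pigment epithelium or ciliary body was not measured, and its part in these falls was not tested.

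Single genes known from the ciliary epithelium, barriers and matrix fell as well, grouped here after their values were seen. Of the 32 measured extracellular matrix genes fixed as a list none was called lower and 1 higher, and the median was 0.01. Optc, a vitreous protein made by the ciliary epithelium, measured 9.66, 9.73 and 9.66 in WT dark and 9.11, 9.12 and 8.53 in WT light, with a difference of -0.76 ± 0.14 (adjusted p = 0.0294). Mfap4, a microfibril protein, fell by 0.72 (adjusted p = 0.0304). The ligand genes Bmp4 and Bmp2 fell by 0.72 and 0.71 (adjusted p = 0.0112 and 0.0399). For Bmp4 the arrays gave 7.98, 8.11 and 7.96 in WT dark and 7.48, 7.34 and 7.08 in WT light, and KO dark at 7.91 to 8.13 lay with WT dark. Vcan, a matrix proteoglycan, fell by 0.70 (adjusted p = 0.0225), and Gja1, a gap junction protein, by 0.66 (adjusted p = 0.0245). Ptgds, the prostaglandin D2 synthase of barrier tissues and RPE, measured 11.09, 11.02 and 10.92 in WT dark and 10.44, 10.19 and 10.36 in WT light, with a difference of -0.68 ± 0.07 (adjusted p = 0.00523, at most 0.0409 whichever array was left out). Transporters named after their values were seen fell likewise, Slc4a5 by 0.53 (adjusted p = 0.00821), Slc22a8 by 0.60 (0.0128), Slc6a13 by 0.59 (0.035) and the endocytic receptor gene Lrp2 by 0.62 (0.00701), as did Best2, a channel of the ciliary epithelium, by 0.34 (0.0402), and Sfrp1, an inhibitor of Wnt signals, by 0.34 (0.0292). Best2 and Mfap4 lost the call whichever array was left out. Optc and Gja1, Bmp2 and Sfrp1 each kept it without 1 array only, which was WT light replicate 3 for Optc and WT light replicate 1 for the other 3. Bmp4 lost it without WT dark replicate 1 or 2, Vcan without WT dark replicate 1 or 2 or WT light replicate 2 or 3, Slc4a5 without WT dark replicate 2, Slc22a8 without WT dark replicate 2 or 3, and Slc6a13 without WT dark replicate 1, 2 or 3 or WT light replicate 2. The adjusted p of these genes reached at most 0.137. With 12 arrays Bmp4, Vcan, Ptgds, Slc22a8 and Lrp2 were still called, with an adjusted p between 0.0291 and 0.0497, and without KO light replicate 3 Gja1, Best2, Sfrp1, Tyrp1 and Dct were not (0.0648 to 0.319). Gpnmb, a glycoprotein of pigment cells and macrophages, fell by 0.56 (adjusted p = 0.0408, lost whichever array was left out, up to 0.141) and was the called gene among 20 of microglia and macrophages, whose median was -0.04.

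Cdkal1 and zinc finger genes of chromosome 13 fell with little spread. Cdkal1, which modifies a lysine transfer RNA, measured 9.81, 9.71 and 9.76 in WT dark, 9.07, 8.92 and 9.05 in WT light and 9.64, 9.68 and 9.63 in KO dark. The WT light animals, all male, lay below all 6 animals kept in the dark, which were all female. The difference was -0.75 ± 0.06 (adjusted p = 0.00118, at most 0.0122 whichever array was left out and 8.99e-05 with 12 arrays). Of 31 fitted genes named Zfp on chromosome 13 5 were called lower and 2 higher, against 5 lower and 5 higher of 306 such genes on other chromosomes. Zfp874b measured 6.71, 6.53 and 6.42 in WT dark, 5.84, 5.73 and 5.6 in WT light and 6.71 to 6.77 in KO dark, a difference of -0.83 ± 0.09 (adjusted p = 0.005). Zfp458 fell by 0.66 (adjusted p = 0.00311) and Zfp738 by 0.64 (adjusted p = 0.00374), and the 3 probe sets of Zfp738 differed by -0.76, -0.95 and -0.21. These 3 genes kept the call whichever array was left out and with 12 arrays. Zfp87 fell by 0.51 (adjusted p = 0.0448, lost whichever array was left out, up to 0.139) and Zfp595 by 0.40 (adjusted p = 0.0266, kept only without WT dark replicate 2, up to 0.0879), while Zfp759 rose by 0.52 ± 0.07 (adjusted p = 0.0127, at most 0.0716 without WT dark replicate 1 or 2 or WT light replicate 3). All 7, with Zfp58 as the other higher gene (0.31, adjusted p = 0.0309, lost whichever array was left out, up to 0.107), lie in a stretch of chromosome 13 that holds many Zfp genes in the RefSeq order. Zinc finger genes of such stretches are close copies of each other, so probe sets may share signal between them. Gstm6, a glutathione transferase and likewise a member of a run of copies, measured 5.61, 5.69 and 5.65 in WT dark, 4.94, 5.02 and 4.94 in WT light and 5.35 to 5.38 in KO dark, a difference of -0.69 ± 0.05 (adjusted p = 0.000808).

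Among probe sets for microRNA genes more were called lower than higher. An array of this kind reads the transcripts from which microRNAs are cut, not the mature microRNAs. Of 263 fitted microRNA genes 14 were called lower and 5 higher (1.66% and 1.78% of all genes). A lower mean was found at 164 of them, against 8363 of all 19104 genes, and the median was -0.04, against 0.02 over all genes. The cluster of Mir183, Mir96 and Mir182, which photoreceptors express strongly, and Mir204 and its relative Mir211, which retina and pigment epithelium share, are shown for their mature sequences in RefSeq (GRCm38.p6), with the seed, bases 2 to 8, in capitals. Mir183 (chr6:30169711-30169732, minus strand), Mir96 (chr6:30169506-30169528, minus strand) and Mir182 (chr6:30165962-30165986, minus strand) have different seeds around the shared core UGGCA, and Mir204 (chr19:22750610-22750631, plus strand) and Mir211 (chr7:64205831-64205852, plus strand) have the same seed.
miR-183-5p: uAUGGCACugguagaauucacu
miR-96-5p: uUUGGCACuagcacauuuuugcu
miR-182-5p: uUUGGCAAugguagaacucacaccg
miR-204-5p: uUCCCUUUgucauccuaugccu
miR-211-5p: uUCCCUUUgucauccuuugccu
Mir204 measured 9.23, 9.26 and 9.31 in WT dark, 8.77, 8.91 and 8.76 in WT light and 9.27 to 9.34 in KO dark. The light animals, all male, lay below the 6 animals kept in the dark, which were all female. The difference was -0.45 ± 0.06 (adjusted p = 0.00806, lost without WT dark replicate 2 at 0.0524, 0.00995 with 12 arrays). Mir183 measured 6.44, 6.32 and 6.47 in WT dark and 5.68, 6.15 and 5.83 in WT light, with a difference of -0.52 ± 0.11 (adjusted p = 0.0372, kept only without WT light replicate 2, up to 0.125). Its cluster partners were not called, with -0.34 ± 0.14 (adjusted p = 0.188) for Mir96 and -0.37 ± 0.13 (adjusted p = 0.141) for Mir182. The lowest was Mir380, at -0.61 ± 0.07 (adjusted p = 0.0068). Mir380 and Mir485 (-0.51, adjusted p = 0.032, lost whichever array was left out, up to 0.091) were among 7 lower microRNA genes on chromosome 12, with Mir153 (-0.43, adjusted p = 0.00809). Several lower ones were dim. Mir380, Mir153, Mir376a and Mir381 on chromosome 12 and Mir669c on chromosome 2 lay below a log2 intensity of 6 in all 6 arrays. Mir708 (-0.47, adjusted p = 0.0266) and Mir181a-1 (-0.38, adjusted p = 0.0256) lost the call whichever array was left out (up to 0.0903 and 0.0788). The other copy, Mir181a-2, was called higher (0.32, adjusted p = 0.0437), as was Mir181b-2, like it on chromosome 2 (0.27, adjusted p = 0.0353), and both lost the call whichever array was left out (up to 0.121 and 0.104). The other 3 called higher were Mir6516 (0.47), Mir320 (0.33) and Mirlet7i (0.32). Except for Mir183, Mir96 and Mir204 the microRNA genes were named after their values were seen.

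At 147 of the 659 called genes (22.3%, and at 4.52% of all genes) WT dark stood apart from KO dark as well, which means that all 3 WT dark values lay on the same side of the 3 KO dark values as of the 3 WT light values, with KO dark at least 0.5 of the way to WT light. Of these 69 were higher and 78 lower in WT light, which left 272 higher and 240 lower genes without this mark. What sets WT dark apart at these genes was not tested. Where no distance was asked of KO dark 211 called genes had the mark, and where it had to go as far as WT light 41. The pair Abhd14a and Abhd14b, neighbours on chromosome 9, led them. Abhd14a measured 10.46, 10.34 and 10.43 in WT dark, 8.19, 8.20 and 8.14 in WT light and 8.07, 7.89 and 8.24 in KO dark, a difference of -2.23 ± 0.05 between light and dark (adjusted p = 5.66e-07). Abhd14b measured 8.43, 8.42 and 8.33 in WT dark, 10.18, 10.03 and 10.05 in WT light and 10.14, 9.76 and 10.14 in KO dark, a difference of 1.70 ± 0.06 (adjusted p = 8.03e-06). The 2 genes changed in opposite directions with no overlap, and their neighbour Acy1 rose by 0.45 ± 0.06 (adjusted p = 0.0141, lost, up to 0.0721, without WT dark replicate 1 or 2 or WT light replicate 1 or 3). Cdk2ap1, a regulator of the cell cycle, measured 10.43, 10.46 and 10.35 in WT dark, 11.53, 11.57 and 11.64 in WT light and 11.60 to 11.68 in KO dark, a difference of 1.17 ± 0.05 (adjusted p = 5.47e-05). Slc25a37, the iron carrier of mitochondria, measured 9.0, 9.39 and 9.05 in WT dark, 7.87, 7.76 and 8.02 in WT light and 7.69 to 7.88 in KO dark, a difference of -1.26 ± 0.11 (adjusted p = 0.00238). Fndc1 (1.13), Cmtm5 (0.99), Mns1 (-0.90), Uggt2 (-0.81), Cdcp3 (-0.81) and Hdc, the histidine decarboxylase (-0.71), behaved alike, and of these Fndc1 kept its call only without WT light replicate 2 (up to 0.0689) and Hdc lost it without WT dark replicate 1 (0.0565). By chromosome, the mark was on 21 of 42 called genes on chromosome 9 and 19 of 37 on chromosome 12. It was also on 16 of 42 on chromosome 14, 8 of 21 on chromosome 15 and 4 of 11 on chromosome 18. Low shares were 1 of 47 on chromosome 6, 2 of 37 on chromosome 3, 1 of 19 on chromosome 19 and 1 of 17 on chromosome 16. These chromosomes were picked after their values were seen.

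**Figure D4:**
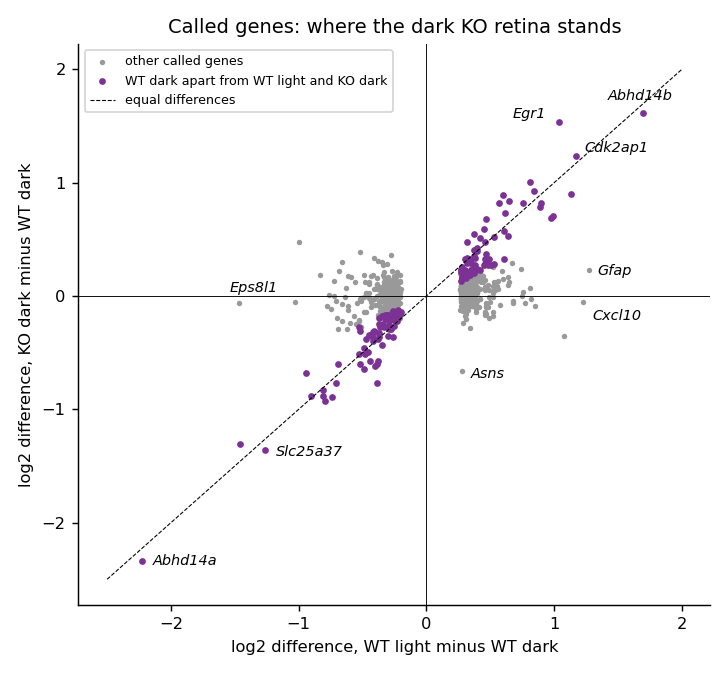
For each of the 659 called genes, the log2 difference of WT light minus WT dark on the x axis is set against that of KO dark minus WT dark on the y axis; both share the WT dark arrays, so points near the dashed line show a WT dark value apart from both groups. Purple marks the 147 genes at which WT dark stood apart, with Abhd14a, Abhd14b, Cdk2ap1 and Egr1 far out, while Gfap, Cxcl10 and Eps8l1 lie near a KO dark difference of 0.

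The immediate early genes Egr1, Fos and Nr4a1 belonged to this set. They were the called ones of 25 AP-1 and immediate early genes, all higher (1.78% of all genes), and at all 3 KO dark reached the range of WT light. Egr1, a transcription factor induced within minutes by stimulation, measured 7.19, 7.23 and 6.96 in WT dark, 7.83, 8.17 and 8.52 in WT light and 8.67, 8.49 and 8.83 in KO dark. The KO animals lay above WT light replicates 1 and 2 and level with replicate 3, and the difference between light and dark was 1.04 ± 0.16 (adjusted p = 0.0165). Fos, a partner in AP-1, measured 6.22, 6.36 and 6.21 in WT dark, 6.90, 7.11 and 7.44 in WT light and 7.0 to 7.07 in KO dark, a difference of 0.89 ± 0.12 (adjusted p = 0.0115). Nr4a1, an orphan nuclear receptor, measured 8.06, 8.17 and 8.13 in WT dark, 8.72, 8.93 and 9.22 in WT light and 9.45, 8.93 and 8.77 in KO dark, a difference of 0.84 ± 0.11 (adjusted p = 0.0102). The calls of Egr1 and Fos were lost without WT dark replicate 1, 2 or 3 or WT light replicate 2 (up to 0.0721 and 0.057), and that of Nr4a1 without WT dark replicate 1 or 2 (up to 0.0606). Jun (0.24 ± 0.07, adjusted p = 0.108) and Fosb (0.15 ± 0.07, adjusted p = 0.219) were not called. Th, the rate-limiting enzyme of dopamine synthesis in amacrine cells, rose by 0.32 ± 0.06 (adjusted p = 0.0277, kept only without WT dark replicate 3, up to 0.0952), with KO dark (7.50 to 7.56) above every WT light value (7.32 to 7.41).

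Differences at photoreceptor genes were small in size. Of 24 measured genes of rod phototransduction and the outer segment 1 was called (3.45% of all genes), Rgs9bp, the anchor of the complex that ends the light response. It measured 11.09, 11.08 and 11.09 in WT dark and 11.50, 11.38 and 11.44 in WT light, with a difference of 0.36 ± 0.05 (adjusted p = 0.0102, lost without WT dark replicate 2 at 0.0541). The median of the list was 0.03, and Gnat1 (-0.05 ± 0.04, adjusted p = 0.481) and Cnga1 (-0.04 ± 0.06, adjusted p = 0.75) were not called. In limma 6 of the 24 had an unadjusted p under 0.05 (22.9% of all genes), 3 of them higher. Groups did not overlap at 5 higher and 6 lower members (17.7% and 10.7% of all genes). Limma called none of 10 cone genes, with 4 at an unadjusted p under 0.05 (22.9% of all genes), 1 of them higher, and a median of -0.09. It called none of 10 photoreceptor transcription factors, with 4 at an unadjusted p under 0.05, 3 of them higher, and a median of 0.03. Nrl, which sets rod fate, differed by -0.03 ± 0.05 (adjusted p = 0.768), and Crx by 0.05 ± 0.05 (adjusted p = 0.571). Drd4, the dopamine receptor of photoreceptors that follows the light cycle, rose by 0.35 ± 0.05 (adjusted p = 0.01, lost without WT dark replicate 2 at 0.0531). Its KO dark values were 11.86, 11.80 and 11.46 against 11.44 to 11.47 in WT dark and 11.76 to 11.87 in WT light, so that 2 of the 3 KO animals kept in the dark lay within the range of WT light. The clock genes Arntl (-0.02) and Clock (0.04) were not called. None of 14 visual cycle genes was called in limma, with 4 at an unadjusted p under 0.05 (22.9% of all genes).

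Among markers of inner retinal cell types the calls went both ways, where 3.45% of all genes were called. The horizontal cell transcription factors Onecut1 and Onecut2 fell by 0.36 (adjusted p = 0.0404) and 0.26 (adjusted p = 0.0339), 2 of 7 measured markers, with a median of -0.16. The other markers, Lhx1 (-0.192), Gja10 (-0.156), Prox1 (-0.015), Calb1 (0.012) and Septin4 (0.115), were not called. Onecut1 measured 7.90, 7.83 and 7.63 in WT dark and 7.34, 7.44 and 7.50 in WT light, and kept its call only without WT dark replicate 3 (up to 0.136), while Onecut2 lost its call whichever array was left out (up to 0.11). The bipolar cell genes Vsx1 and Cabp5 rose by 0.27 (adjusted p = 0.0292) and 0.29 (adjusted p = 0.0266), 2 of 13 measured, and both lost the call whichever array was left out (up to 0.087 and 0.0834). The median of the 13 was 0.01. Of 16 amacrine cell markers Th and Npy were called, both higher, with a median of 0.04. Npy, a neuropeptide of amacrine cells, measured 8.75, 8.85 and 8.76 in WT dark and 9.20, 9.20 and 9.52 in WT light, with a difference of 0.52 ± 0.09 (adjusted p = 0.0216, at most 0.0769 without WT dark replicate 1, 2 or 3 or WT light replicate 2). None of 14 ganglion cell markers was called in limma, with 5 at an unadjusted p under 0.05 all 5 lower (8.61% of all genes), and a median of -0.09.

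Lists of cell death and stress genes held 1 or 2 called genes each, where 1.78% of all genes were called higher and 1.66% lower. Of 35 apoptosis genes the survival genes Mcl1 (0.27 ± 0.05, adjusted p = 0.0251) and Bcl2l2 (0.35 ± 0.08, adjusted p = 0.0423) rose, and at Bcl2l2 WT dark stood apart from KO dark too. Fas, a death receptor, differed by 0.13 ± 0.07 (adjusted p = 0.32) and Bcl2 by -0.07 ± 0.05 (adjusted p = 0.436). Of 27 genes of p53 and DNA damage Gadd45b and the kinase gene Atm (0.30 ± 0.05, adjusted p = 0.0266) rose, of 24 genes of the unfolded protein response Eif2ak3 (0.27 ± 0.05, adjusted p = 0.0342), and of 21 heat shock chaperone genes Dnajb1 (0.27 ± 0.06, adjusted p = 0.0476). The calls of Mcl1, Bcl2l2, Atm, Eif2ak3 and Dnajb1 were lost whichever array was left out, with an adjusted p of up to 0.0841, 0.125, 0.0875, 0.1 and 0.145. The medians of these 4 lists lay between 0.05 and 0.09. Of 22 antioxidant and Nrf2 target genes Prdx3 was called higher and the cystine transporter gene Slc7a11 lower (-0.36 ± 0.08, adjusted p = 0.0423, lost whichever array was left out, up to 0.139). Hmox1, a target of Nrf2, was not called (0.21 ± 0.05, adjusted p = 0.0554). Of 19 amino acid response genes Asns and Ddit4 (0.31) were called higher, of 18 cholesterol synthesis genes Pmvk (0.42), of 32 extracellular matrix genes Fndc1 and of 23 angiogenesis and hypoxia genes Kdr. Of 11 genes of dopamine and tetrahydrobiopterin synthesis Th and Drd4 were higher and Pcbd1 lower (-0.31). Ddit4 lost the call whichever array was left out (up to 0.132), Pmvk kept it only without WT dark replicate 2 (up to 0.0808) and Pcbd1 only without WT light replicate 3 (up to 0.0775).

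**Figure D5:**
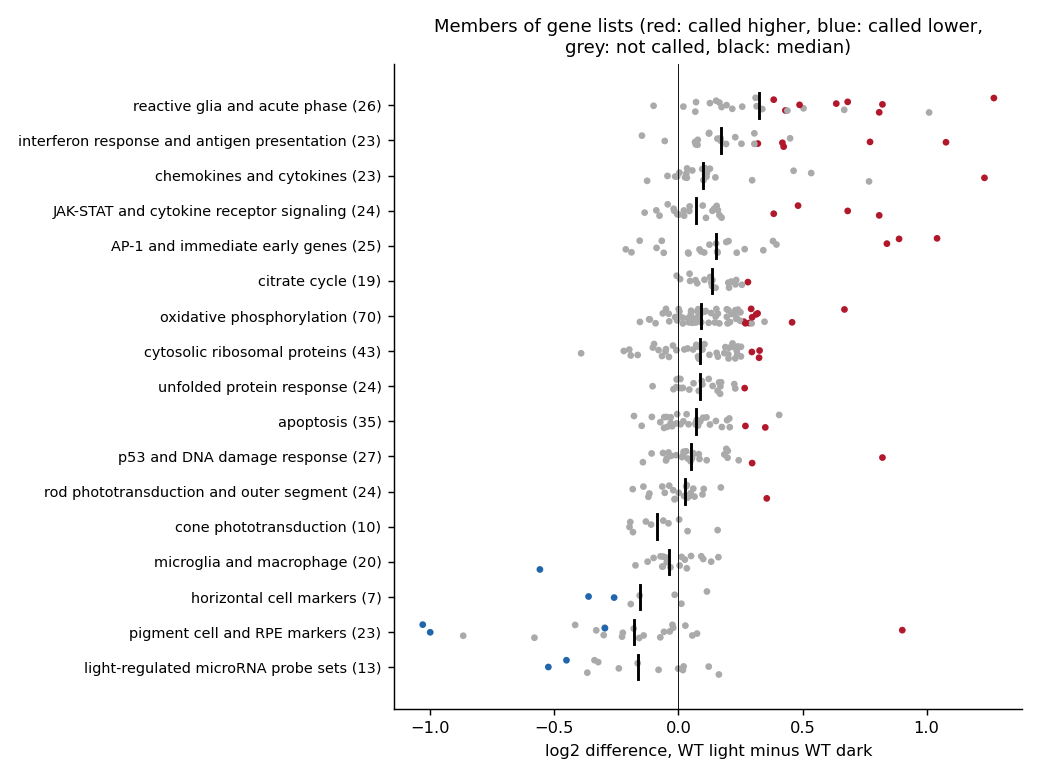
Log2 difference of WT light minus WT dark for each member of 17 gene lists, with the number of measured members in parentheses, called genes in red (higher) or blue (lower), other members in grey and the list median as a black bar. Reactive glia (0.33) and interferon response (0.17) have medians to the right, pigment markers (-0.18) and horizontal cell markers (-0.16) to the left, and rod genes (0.03) near 0.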

How the data were processed

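RNA of retinae was measured on Affymetrix Mouse Gene 1.0 ST arrays. The deposited values are probe set intensity values on the linear scale. The authors had levelled them between arrays (array medians 142.2 to 144.6 in the 6 WT arrays). The submitters' processing notes name Partek. Its version, the summarization and the genome build were not given in the sources used here. Arrays give no read depth. Background was not considered, so dim probe sets were kept, and the 3 animals of a group limit the precision.

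Intensities were taken to log2. Of 34760 probe sets 21640 carry 1 gene symbol, 1321 several and 11799 none. Those with 1 symbol were averaged per gene (19937 genes, 954 with more than 1 probe set). Names and chromosomes came from the RefSeq table of GRCm38.p6, which matched 21553 probe sets. Left out were 739 genes on X, 9 on Y and 85 unplaced, which left 19104. The 6 arrays were fitted alone with limma 3.58.1 (lmFit and eBayes) in R 4.3.3, with 4 residual degrees of freedom, with the Benjamini-Hochberg adjustment taken over the 19104 genes. Calls rest on this adjusted p (under 0.05) together with the ratio (1.2 and above, or 0.87 and below). The function was tested on simulated data. Differences are WT light minus WT dark, ± is the SE of a difference or the SD of a mean, and "not overlapping" means that all 3 values of a group lie above all 3 of the other.

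Members and gene lists were chosen with earlier results of these data known, and lists are described by counts and medians without a test. Genes named are the top 15 called genes in each direction by size of change, not overlapping between groups, at which WT dark did not stand apart from KO dark, the 5 and 5 largest at which it did (predicted genes, microRNAs and small RNAs left out of both), up to 4 called members and the first 2 members of each list, and genes the study names for the retina. Other genes named, among them Acy1, Best2, Ctsl, Hdc, Jun, Lrp2, Socs3, Hk2, Nampt, Slc2a3, the further called subunits of oxidative phosphorylation, the Zfp genes beyond Zfp458, Zfp738 and Zfp874b, and most microRNA genes, were chosen after their values were seen. Alternatives were another scaling, a pseudocount of 50, genes under a log2 mean of 6 left out, the brightest probe set, other variances, other arrays and other thresholds, and, added after seeing the data, the 11 arrays without KO light replicate 3. The labels name Trizol for the RNA and the methods another kit.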

Additional observations from a re-analysis of the deposited data

Results flagged for a closer look

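The array labelled WT dark replicate 4, a male mouse by the labels and by Xist (4.88) and Uty (9.29), entered no comparison. At 354 of the 512 called genes at which WT dark did not stand apart from KO dark it lay nearer the mean of WT light than that of WT dark, at 213 of the 272 higher and 141 of the 240 lower ones, and at 127 of the higher ones it exceeded all 3 WT light arrays. Its log2 intensity was 9.71 for Gfap, 10.36 for Gadd45b and 8.08 for Cxcl10, each above every WT dark and WT light array. The mean level of the 26 reactive glia genes was 9.77 in it, against 7.94 to 8.15 in the other WT dark arrays and 8.25 to 8.72 in WT light. It correlated at 0.998 with KO light replicate 1 and at 0.9898 to 0.9899 with WT dark, while KO light replicate 3 correlated at 0.9974 to 0.9977 with WT dark. What sets these arrays apart, an exchange of labels included, was not tested.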

How the results depend on the processing

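Of 659 called genes (341 higher, 318 lower) 72 were called with the 12 arrays of 4 groups (29 higher, 43 lower), all 72 among the 659. Leaving KO light replicate 3 out of these 12, chosen after seeing the data, gave 826 (409 higher, 417 lower), 602 of them among the 659. Counting WT dark replicate 4 among the WT dark animals left 6 called genes (2 higher, 4 lower), and there Usp18 turned from higher to lower (-0.13, adjusted p = 0.956; 0.0195 as reported). Leaving out 1 array gave between 90 and 237 calls (45 to 141 higher, 45 to 96 lower). Without moderated variances 8 genes were called (4 higher, 4 lower), and with a ratio of 1.5 or 0.67 there were 70 (35 higher, 35 lower). Quantile normalization gave 490 lower genes of 746, variances with a trend and robust moderation 482 lower of 919, and the adjusted p alone 537 higher of 860. Centring, the pseudocount, the brightest probe set, leaving out dim genes and adding the genes on X and Y gave 523 to 801 calls. The replicate numbers did not pair the animals (correlations of deviations 0.158, 0.014 and -0.055), and with the replicate block 292 genes were called (170 higher, 122 lower). 

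The 147 called genes at which WT dark stood apart became 41 where KO dark had to go as far as WT light and 211 where no distance was asked. They were 20 with 12 arrays, 1 with replicate 4 counted in, 5 without moderated variances, 28 with a ratio of 1.5 or 0.67, 83 with the replicate block and 38 to 71 with 1 array left out. Of 114 called genes named, 26 kept their call with 12 arrays, 99 with 11, 29 to 60 with 1 array left out and 76 with the block. Most of the calls lost with 12 arrays were thus made again without KO light replicate 3, no other KO array was left out in turn, and the cause of the losses was not tested. The 3 animals a group, sex that goes with light, and unequal levels of pigment and lens markers between animals limit every comparison.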
